A study of Mus musculus with 15 samples.

Results

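The carriers that move amino acids and their relatives across cell membranes were examined in RNA sequencing of mouse podocyte fractions. Members were chosen by name, as the protein-coding genes whose symbol starts with Slc1a, Slc3a, Slc6a, Slc7a, Slc36a, Slc38a or Slc43a followed by a digit, and 64 of the 46078 genes in the count table met this rule. The samples were cell suspensions of C57BL/6J male kidney cortex, enriched with anti-nephrin antibodies by magnetic sorting. Young mice were 4 months old and received no injection. Aged mice were 21 months old when weekly intraperitoneal injections of 12 mg/kg began, which ran for 8 weeks, with either the control antibody IgG2a (clone 2A3) or the anti-PD-1 antibody aPD1ab (clone RMP1-14). The sample titles of the aged aPD1ab group give 47 days. The uninjected young mice differ from aged IgG2a mice in injection as well as age. The labels list 5 samples a group, and 13 libraries could be tied to a group, 5 young, 4 aged IgG2a and 4 aged aPD1ab. They were tied by the numbers that the study's own principal component plot shows, and the replicate numbers used here only name libraries. The study describes sequencing of the cell fractions of each single mouse, but the labels do not tie a library to a mouse. The p-values measure the spread between these libraries.

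Amino acid carriers work in families that differ in what they move and where in the cell they sit. In the kidney the proximal tubule takes up nearly all filtered amino acids through apical carriers, and basolateral exchangers hand them to the blood. Several of these carriers are pairs, in which a heavy chain, Slc3a1 (rBAT) or Slc3a2 (CD98), brings a light chain of the Slc7 family to the membrane. Other members serve the cell itself, as importers of glutamine, cationic amino acids or cystine, as lysosomal carriers that report amino acids to the growth kinase mTORC1, or as carriers of osmolytes, creatine and neurotransmitters. Podocytes are the filtering epithelial cells of the glomerulus and do not carry out tubular reabsorption.

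Library totals ran from 19912969 to 32717100 counts. The podocyte label was checked against markers. Summed levels, in read counts scaled to library size (CPM), of 6 podocyte markers were 802 to 1280 in young, 451 to 622 in aged IgG2a and 239 to 773 in aged aPD1ab libraries, and nephrin (Nphs1) averaged 64.6, 8.81 and 27.1 CPM. The fractions also held tubular and immune transcripts, and 12 proximal tubule markers summed to 11900 to 18100 CPM in young libraries. One library, aged IgG2a replicate 1, stood apart from its group, at 16.6 on the first principal component where replicates 2 to 4 lay between -83.3 and -71. Aged aPD1ab replicate 2 also lay apart, at 64.6 where the rest of its group lay between -11.8 and 13.2. The fold changes of the main results that use aged IgG2a are given over all mapped libraries and without aged IgG2a replicate 1. That library was picked from these same data, so the calls without it are descriptions only. In bulk samples fewer cells of a type and less RNA per cell cannot be told apart.

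The carriers spanned a wide range of levels. Compared per kilobase of exon, the highest mean level in young libraries was that of Slc7a13, at 112 ± 11.2 CPM per kb (SD, n = 5). It was followed by Slc3a1 at 63.1 ± 12.1, Slc3a2 at 43.8 ± 3.61, Slc6a18 at 41.7 ± 8.27, Slc6a6 at 41.6 ± 2.71 and Slc6a19 at 32.9 ± 9.53 CPM per kb. Slc7a13 and Slc3a1 were separated by more than their spread, whereas the means of Slc3a2, Slc6a18 and Slc6a6 differed by less than the SD of Slc6a18. Of the leading 6 genes, 4 are apical tubular carriers, 1 is the CD98 heavy chain and 1, Slc6a6, is the taurine carrier. At the other end, Slc38a5, Slc38a8 and Slc6a11 had 0 counts in all 13 libraries. Of all members, 48 passed the filter on low counts in at least 1 comparison and 16 in none. The 16 reached at most 19 counts in any library, and 8 of them had at most 3.

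The age comparison asks how the aged, IgG2a-injected podocyte fraction differed from the young one. Apical proximal tubule carriers were lower in aged IgG2a, and the CD98 light chains Slc7a5, Slc7a6 and Slc7a11 were higher. Of 46 members tested over all mapped libraries, 5 rose and 14 fell (edgeR quasi-likelihood test, adjusted p under 0.05), where 9.05% and 8.38% of all genes tested did so. Without aged IgG2a replicate 1, 10 rose and 20 fell, against 22.1% and 23.5% of all genes. The median log2 fold change of the members was -0.34 with and -0.38 without that library, and the median over all genes was 0.04 and -0.01. The number that fell also depended on each other library. It was 5, 5, 3, 6 and 5 without young replicates 1 to 5, and 3, 1 and 3 without aged IgG2a replicates 2 to 4. Of all genes tested 1337 fell over all mapped libraries. In the same order of fits 583, 747, 464, 673 and 760, and 384, 293 and 530, of all genes fell. No named member that was called changed its direction in any of these fits. Of the 19 members called over all mapped libraries, Slc6a12, Slc6a15 and Slc7a11 were called in each of the 9 fits that left out 1 library, and the other 16 were lost in at least 1.

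Among the apical carriers the shared heavy chain Slc3a1 comes first, since it pairs with Slc7a9 to take up cystine and cationic amino acids, and with Slc7a13 in the late proximal tubule. Slc3a1 (ENSMUSG00000024131) spans positions 85028376 to 85064236 of chromosome 17 in GRCm38 and overlaps Prepl on the opposite strand. It measured 116, 149, 186, 122 and 145 CPM in young replicates 1 to 5, and 94.4, 18.9, 24.6 and 19.5 CPM in aged IgG2a replicates 1 to 4. All 4 aged IgG2a libraries lay below all young ones, replicate 1 just below and the other 3 far below. The share of all genes whose groups do not overlap is not given for any comparison. Each statement of non-overlap, here and below, is therefore a description only. Its log2 fold change was -1.81 ± 0.47 (SE; adjusted p = 0.0308, edgeR), and -2.72 ± 0.18 without replicate 1.

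Among aged IgG2a libraries replicate 1 was also the highest for the light chains. Slc7a13 (ENSMUSG00000041052, chromosome 4, positions 19818725 to 19842218) stood at 216, 252, 269, 213 and 247 CPM in young and at 141, 21.2, 42.6 and 16.3 CPM in aged IgG2a libraries, without overlap. This was a log2 fold change of -2.07 ± 0.56 (adjusted p = 0.0348, edgeR), and of -3.11 ± 0.30 without replicate 1, the lowest value of any member in both fits. Slc7a9 stood at 45.9, 46.2, 65.6, 36.2 and 58.0 CPM in young and at 41.4, 10.1, 12.3 and 14.9 CPM in aged IgG2a libraries. Here replicate 1 lay inside the young range and the other 3 below it, and the log2 fold change was -1.30 ± 0.39 with and -1.97 ± 0.21 without that library.

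The strand setting of the counting is not given in the sources used here, so reads from a member and from a gene overlapping it on the opposite strand could not be separated. Among the apical carriers this concerns Slc3a1 (Prepl), Slc6a19 (Slc6a19os), Slc6a20a (Ccr9, Gm17120 and Gm17200), Slc6a20b (Sacm1l) and Slc1a1 (4430402I18Rik and Gm5822). In the CD98 group it concerns Slc7a5 (Gm20388), Slc7a7 (Oxa1l), Slc7a10 (Lrp3) and Slc7a11 (Gm37854, Gm37826 and Gm2345). The other named members with such a neighbour are Slc1a2, Slc38a10, Slc6a13, Slc6a4, Slc6a9, Slc7a2 and Slc7a4.

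The sodium-coupled carriers of the Slc6 family fell as well. Slc6a19 (B0AT1), the main apical carrier of neutral amino acids, measured 141, 142, 227, 111 and 200 CPM in young and 94.1, 24.9, 42.3 and 55.0 CPM in aged IgG2a libraries. The groups did not overlap, and the log2 fold change was -1.55 ± 0.35 (adjusted p = 0.0228, edgeR), or -1.97 ± 0.32 without replicate 1. Its neighbour on chromosome 13, Slc6a18 (B0AT3), measured 169, 228, 219, 146 and 161 CPM in young and 125, 19.5, 33 and 13.5 CPM in aged IgG2a libraries. These groups did not overlap either, with a log2 fold change of -1.91 ± 0.58 (adjusted p = 0.0474, edgeR) that became -3.01 ± 0.31 without replicate 1.

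Slc6a20a and Slc6a20b belong to the imino acid (proline) branch and lie side by side on chromosome 9. Slc6a20b measured 71.2, 84.8, 112, 74.7 and 86.3 CPM in young and 53.8, 9.41, 16.1 and 11.3 CPM in aged IgG2a libraries, again without overlap. Its log2 fold change was -1.87 ± 0.47 (adjusted p = 0.0287, edgeR), or -2.75 ± 0.21 without replicate 1. Slc6a20a was far less abundant, at 2.86, 4.70, 5.36, 2.38 and 3.62 CPM against 3.34, 0.286, 1.99 and 1.31 CPM. It did not pass the test over all mapped libraries (adjusted p = 0.174, edgeR), and without replicate 1 its log2 fold change was -1.65 ± 0.51 (adjusted p = 0.0243, edgeR). The annotated transcripts of the pair share 631 stretches of 50 bases, 15.3% of those of Slc6a20a, so the level of Slc6a20a is uncertain where the counting could split reads between them.

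Slc1a1 (EAAC1), the apical glutamate and aspartate carrier, measured 67.6, 73.1, 82.3, 48.7 and 62.5 CPM in young and 39.1, 9.81, 11.1 and 12.0 CPM in aged IgG2a libraries. These groups did not overlap, and the log2 fold change was -1.83 ± 0.40 (adjusted p = 0.0199, edgeR), or -2.56 ± 0.17 without replicate 1. In all, 7 of the 8 tested apical carriers fell over all mapped libraries and 8 of 8 without replicate 1, with median log2 fold changes of -1.82 and -2.64. With 1 of the other 8 libraries left out the calls were fewer, 2 of 8 without young replicate 1, 2, 4 or 5 and 0 of 8 without young replicate 3 or aged IgG2a replicate 2, 3 or 4. In these fits 293 to 760 of all genes tested fell, against 1337 over all mapped libraries. The ninth apical carrier, the proline and glycine carrier Slc36a2, had at most 4 counts in any library and was not tested.

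**Figure D1:**
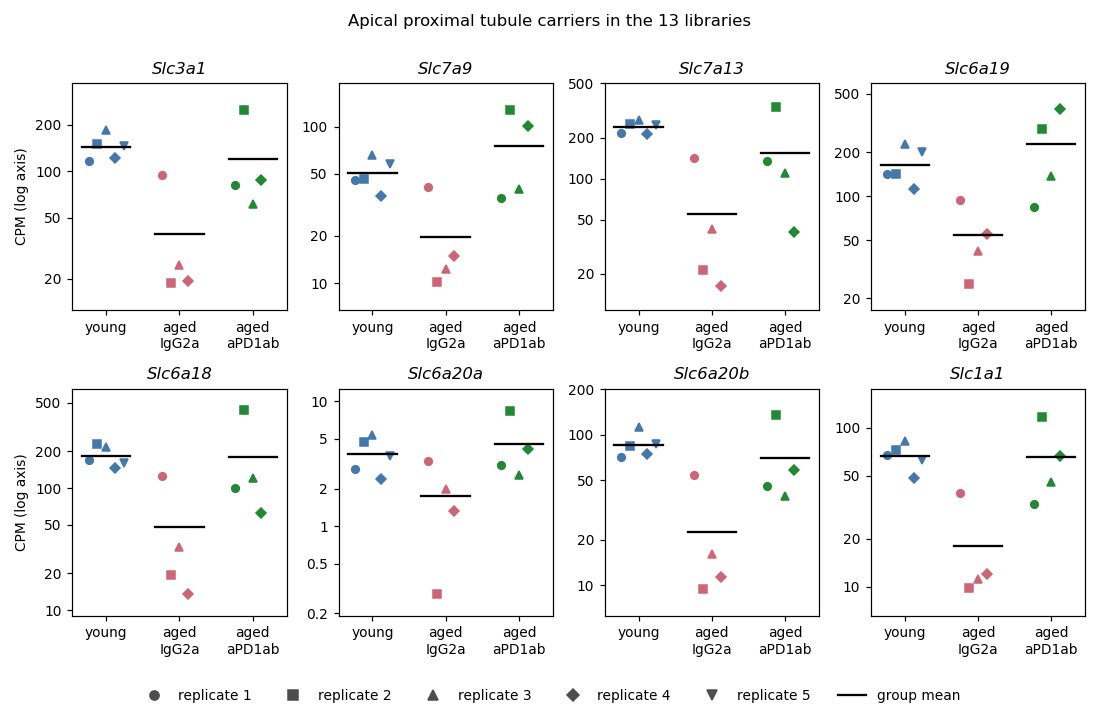
CPM (log axis) of the 8 tested apical carriers in the 13 libraries, by group, with a marker shape for each replicate number and a black line at the group mean. Aged IgG2a replicate 1 (circle) lies above the other 3 aged IgG2a libraries in every panel, and aged aPD1ab replicates 2 (square) and 4 (diamond) are at or near the top of their group for Slc6a19 and Slc7a9, while replicate 4 is the lowest for Slc7a13 and Slc6a18.

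Proximal tubule markers that are not amino acid carriers moved with these genes. The 12 markers, among them Lrp2, Slc34a1, Miox and Hnf4a, summed to 11900 to 18100 CPM in young libraries, to 8640 CPM in aged IgG2a replicate 1 and to 1550 to 2480 CPM in replicates 2 to 4. The share that fell was 11 of 12 over all mapped libraries and 12 of 12 without replicate 1, with median log2 fold changes of -1.86 and -2.65. Relative to 1000 CPM of these markers, the 8 apical carriers together made up 61.7 to 66.2 CPM in young libraries, 68.5 CPM in aged IgG2a replicate 1 and 70.7 to 74.3 CPM in replicates 2 to 4. The ratio of carriers to markers was thus higher in each aged IgG2a library than in any young one. Both sums were lower in replicates 2 to 4 than in any other library. The markers that weigh most in the sum were Kap, Slc34a1 and Acsm2, with means of 5860, 2640 and 2050 CPM in young libraries. With the mean log2 level of the markers as a covariate, edgeR called 0 of 46 members higher and 0 lower, and 7 had an unadjusted p under 0.05. In that fit 30 and 3 of all 15953 genes passed. Marker level and group ran together, so their parts cannot be told apart.

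**Figure D2:**
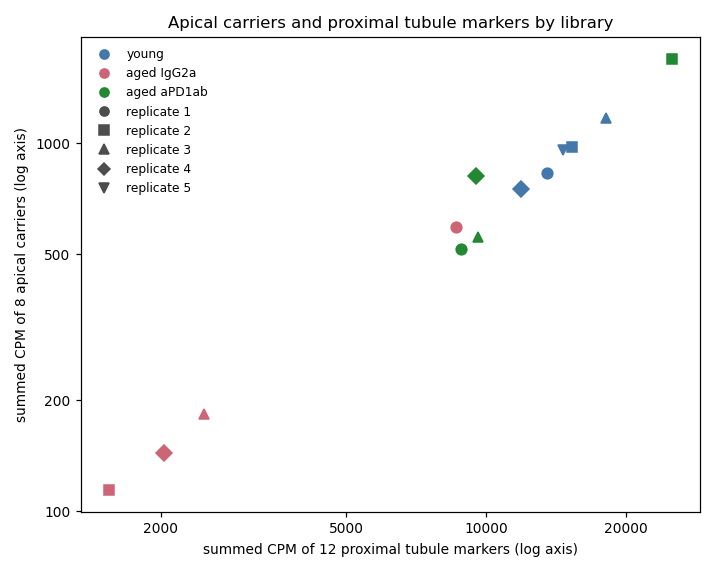
Summed CPM of the 8 apical carriers against summed CPM of 12 proximal tubule markers (log axes), 1 point a library, coloured by group. Aged IgG2a replicates 2 to 4 sit at the lower left, at 114 to 184 CPM of carriers, and aged aPD1ab replicate 2 at the upper right, at 1700 CPM.

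The CD98 group went both ways. Slc3a2, the CD98 heavy chain, measured 159, 157, 168, 134 and 155 CPM in young and 205, 222, 241 and 142 CPM in aged IgG2a libraries. Replicate 4 lay inside the young range and the other 3 above it, and the log2 fold change of 0.45 ± 0.16 did not pass the test (adjusted p = 0.0717, edgeR), whereas without replicate 1 it was 0.44 ± 0.16 (adjusted p = 0.0405, edgeR).

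Slc7a5 (LAT1), the exchanger that brings leucine and other large neutral amino acids into growing cells, measured 10.9, 9.56, 10.0, 7.15 and 9.78 CPM in young and 14.0, 19.2, 19.4 and 12.8 CPM in aged IgG2a libraries. Each aged IgG2a library was above each young one, with a log2 fold change of 0.85 ± 0.17 (adjusted p = 0.016, edgeR), and of 0.92 ± 0.17 without replicate 1. Slc7a6, which exchanges cationic for neutral amino acids, rose by a smaller amount, 0.44 ± 0.12 on the log2 scale (adjusted p = 0.0385, edgeR), or 0.49 ± 0.12 without replicate 1. Its values were 11, 12.4, 9.88, 13.3 and 11.9 CPM in young and 13.3, 15.3, 15.0 and 17.3 CPM in aged IgG2a libraries.

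Slc7a11 (xCT) exchanges glutamate for cystine and so feeds glutathione synthesis. Slc7a11 (ENSMUSG00000027737) spans positions 49892526 to 50443614 of chromosome 3. It was scarce in young libraries, at 0.580, 0.702, 0.516, 0.503 and 0.448 CPM, from 12 to 23 counts a library. In aged IgG2a libraries it stood at 0.938, 3.07, 2.80 and 3.59 CPM, all above the young range, with replicate 1 nearest to it. The log2 fold change of 2.28 ± 0.39 was the highest among the tested members (adjusted p = 0.0094, edgeR), and it was 2.55 ± 0.25 without replicate 1. Slc7a11 passed the test in each of the 9 fits that left out 1 library.

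The basolateral exchangers of the tubule went the other way. Slc7a7 (y+LAT1), which releases cationic amino acids to the blood, measured 61.5, 56.8, 91.5, 48.7 and 71.5 CPM in young and 50.9, 32.8, 31.1 and 37.3 CPM in aged IgG2a libraries. Replicate 1 overlapped the young range, and the log2 fold change was -0.73 ± 0.20 (adjusted p = 0.0351, edgeR), or -0.92 ± 0.19 without that library. Slc7a8 (LAT2) measured 126, 135, 191, 124 and 155 CPM in young and 130, 98.8, 103 and 90.0 CPM in aged IgG2a libraries, and did not pass over all mapped libraries (adjusted p = 0.0935, edgeR) but did so without replicate 1, at -0.53 ± 0.15 (adjusted p = 0.012, edgeR). These genes did not keep a constant ratio to the tubule markers. Slc7a8 made up 8.85 to 10.6 CPM per 1000 CPM of markers in young libraries, 15.0 CPM in aged IgG2a replicate 1 and 41.6 to 63.6 CPM in replicates 2 to 4. For Slc7a7 these ratios were 3.71 to 5.05, 5.88 and 12.6 to 21.1 CPM, and for the creatine carrier Slc6a8 they were 7.37 to 9.15, 15.6 and 24.1 to 33.6 CPM. Of the apical carriers, Slc7a9 was also higher relative to the markers, at 3.02 to 3.98, 4.79 and 4.98 to 7.31 CPM, and so was Slc6a19 in replicates 2 to 4, at 9.27 to 13.8, 10.9 and 16.1 to 27.1 CPM. Slc7a10, the remaining light chain, had at most 4 counts in any library.

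Markers of immune cells were also higher in aged IgG2a, those of macrophages and dendritic cells in replicates 2 to 4 and those of B and plasma cells in all 4 libraries. The 6 macrophage and dendritic markers, Cd68 and C1qa among them, summed to 4240 to 6970 CPM in young libraries, 4960 CPM in aged IgG2a replicate 1 and 12100 to 14900 CPM in replicates 2 to 4, and 5 of 6 rose over all mapped libraries and 6 of 6 without replicate 1. Replicate 1 was inside the young range for these markers and above it for Slc7a5, Slc7a11, Slc6a12 and Slc7a6os. It lay below replicates 2 to 4 for Slc7a11, at 0.938 against 2.80 to 3.59 CPM, and for Slc7a6os. For Slc7a5 and Slc6a12 it lay within the range of replicates 2 to 4. The 4 markers of B and plasma cells summed to 54.4 to 121 CPM in young and to 309, 358, 470 and 889 CPM in aged IgG2a replicates 1 to 4. Of these, 2 rose, with or without replicate 1, namely Jchain at 3.78 ± 0.42 and Mzb1 at 2.37 ± 0.34 on the log2 scale over all mapped libraries, and Cd79a and Ms4a1 did not pass. The part of either cell type in the higher levels of Slc7a11, Slc7a5 and Slc7a6 was not tested.

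The start regions of a gene that fell and of a gene that rose are shown because each holds a motif known from its pathway. Both are the 250 bases before the RefSeq transcription start in GRCm38.p6, on the strand of the gene, with motif letters in capitals. Slc3a1 lies on the plus strand and its region is chr17:85028097-85028346. Slc7a11 lies on the minus strand and its region is chr3:50443614-50443863.
Slc3a1: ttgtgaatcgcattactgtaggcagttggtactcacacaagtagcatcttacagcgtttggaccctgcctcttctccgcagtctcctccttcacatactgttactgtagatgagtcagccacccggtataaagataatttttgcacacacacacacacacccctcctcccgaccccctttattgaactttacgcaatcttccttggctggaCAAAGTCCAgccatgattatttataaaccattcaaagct
Slc7a11: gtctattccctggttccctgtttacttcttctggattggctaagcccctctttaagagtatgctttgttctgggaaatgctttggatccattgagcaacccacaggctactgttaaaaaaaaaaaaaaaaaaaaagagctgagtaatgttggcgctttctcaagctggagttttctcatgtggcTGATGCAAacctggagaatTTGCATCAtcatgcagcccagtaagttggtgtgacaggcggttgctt

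The capitals in Slc3a1 mark CAAAGTCCA, a core letter string of the hepatocyte nuclear factor HNF4, which is a factor of the proximal tubule. It starts 39 bases before the transcription start and occurs, on either strand, in 0.384% of 32851 mouse start regions of this length. The capitals in Slc7a11 mark TTGCATCA, the string bound by C/EBP and ATF4 dimers in amino acid stress, which is present once on each strand, 47 and 66 bases before the start, and occurs in 0.791% of all such regions. Of 67 start regions listed for 46 members, 1 held the former string, that of Slc3a1, and 2 held the latter, those of Slc7a11 and of 1 of the starts of Slc7a7. In aged IgG2a against young Slc7a7 fell, at -0.735 on the log2 scale, whereas Slc7a11 rose. The other apical carriers that fell held neither of these 2 strings in the regions listed. Another string, GTTAAT, to which the tubular factor HNF1 binds in pairs, was in 6 of the 67 regions and in 6.43% of all regions. The 3 strings were searched on both strands, and a match is a description of letters, not of binding.

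Beyond these groups, carriers outside the apical list were also lower in aged IgG2a than in young libraries. Slc6a15, a sodium-coupled carrier of branched-chain amino acids and proline, measured 9.37, 10.7, 11.1, 11.7 and 10.2 CPM in young and 4.13, 1.80, 2.37 and 1.80 CPM in aged IgG2a libraries. The groups did not overlap, the log2 fold change was -1.99 ± 0.24 (adjusted p = 0.0028, edgeR), or -2.36 ± 0.16 without replicate 1, and the call held in each of the 9 fits without 1 library. Slc1a4 (ASCT1), a carrier of serine, alanine and cysteine, measured 7.71, 9.40, 9.52, 9.36 and 8.36 CPM in young and 5.33, 1.47, 2.05 and 3.18 CPM in aged IgG2a libraries, without overlap, at -1.49 ± 0.32 (adjusted p = 0.0186, edgeR), or -1.97 ± 0.23 without replicate 1. In aged aPD1ab against young the log2 fold changes were -0.14 for Slc6a15 and 0.26 for Slc1a4 (adjusted p = 0.754 and 0.62, edgeR).

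Slc6a13 (GAT2), which carries GABA, betaine and taurine, measured 31.2, 40.7, 39.6, 25.8 and 26.5 CPM in young and 22.9, 4.99, 6.52 and 3.18 CPM in aged IgG2a libraries. Its log2 fold change was -1.73 ± 0.49 (adjusted p = 0.0395, edgeR) and became -2.67 ± 0.26 without replicate 1. Slc36a1 (PAT1), a proton-coupled carrier of lysosomes and of the apical membrane, measured 64.5, 72.0, 87.8, 65.1 and 72.1 CPM in young and 54.4, 43.1, 41.4 and 39.2 CPM in aged IgG2a libraries. These groups did not overlap, and the log2 fold change was -0.64 ± 0.13, or -0.75 ± 0.11 without replicate 1. Slc1a2 (GLT-1), the glial glutamate carrier, was low throughout, at 2.32 to 3.33 CPM in young and 0.431 to 1.59 CPM in aged IgG2a libraries, and fell by 1.24 ± 0.33 on the log2 scale (adjusted p = 0.0343, edgeR), or by 1.47 ± 0.35 without replicate 1.

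Without aged IgG2a replicate 1, further members passed the test. Slc6a8, the creatine carrier, was at 123, 121, 149, 107 and 107 CPM in young and at 135, 52.1, 59.8 and 54.1 CPM in aged IgG2a libraries, so that replicate 1 lay in the young range and the other 3 close together below it. Its log2 fold change was -0.64 ± 0.27 over all mapped libraries (adjusted p = 0.119, edgeR) and -1.08 ± 0.12 without replicate 1. The glycine carrier Slc6a9, the neutral amino acid carrier Slc38a4 and the serotonin carrier Slc6a4 were lower in that fit as well, at -1.10, -1.87 and -1.18 on the log2 scale. Members of the Slc38 family that serve the cell or its lysosomes were higher in it, namely the glutamine importer Slc38a1 at 0.58, the lysosomal arginine sensor Slc38a9 at 0.47, the lysosomal glutamine carrier Slc38a7 at 0.48, and Slc38a6, which was outside the naming rule, at 0.57.

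Slc6a12 and Slc7a6os were higher in aged libraries of either kind. Slc6a12 (BGT1; ENSMUSG00000030109, chromosome 6, positions 121343076 to 121365775), the carrier of betaine and GABA by which kidney cells adjust to osmotic load, measured 1.78, 2.35, 1.71, 2.45 and 1.38 CPM in young, 6.21, 3.84, 2.96 and 6.22 CPM in aged IgG2a and 8.33, 2.77, 6.07 and 3.23 CPM in aged aPD1ab libraries. All 8 aged libraries lay above all 5 young ones, and the share of all genes that separate in this way is not given. The log2 fold change was 1.37 ± 0.28 for aged IgG2a (adjusted p = 0.016, edgeR) and 1.40 ± 0.34 for aged aPD1ab (adjusted p = 0.0164, edgeR) against the shared young libraries, and both calls held in each of the 9 fits without 1 library. Without replicate 1 the value for aged IgG2a was 1.20 ± 0.28. Slc7a6os, which meets the naming rule although it is named for lying on the strand opposite to Slc7a6 and is no carrier, showed the same separation. It measured 15.3, 14.7, 15.7, 10.6 and 15.4 CPM in young, 18.0, 22.4, 26.9 and 19.8 CPM in aged IgG2a and 24.8, 21.0, 24.5 and 25.8 CPM in aged aPD1ab libraries, with log2 fold changes of 0.67 ± 0.16 (0.74 ± 0.15 without replicate 1) and 0.76 ± 0.13.

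Slc38a11, a carrier of the glutamine family whose substrates are little known, had the opposite pattern. It measured 0.995, 1.13, 1.11, 1.71 and 1.12 CPM in young, 0.498, 0.327, 0.754 and 0.138 CPM in aged IgG2a and 0.200, 0.163, 0.170 and 0.281 CPM in aged aPD1ab libraries. All aged libraries lay below all young ones. The log2 fold change was -1.40 ± 0.40 for aged IgG2a (adjusted p = 0.0385, edgeR), or -1.49 ± 0.46 without replicate 1, and -2.50 ± 0.32 for aged aPD1ab (adjusted p = 0.0031, edgeR). Counts were small, 24 to 51 a library in young and 2 to 17 in aged libraries, and 2 aged libraries had 3 counts or fewer. The call for aged aPD1ab held in each of the 9 fits without 1 library, while that for aged IgG2a was lost in 8 of 9.

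**Figure D3:**
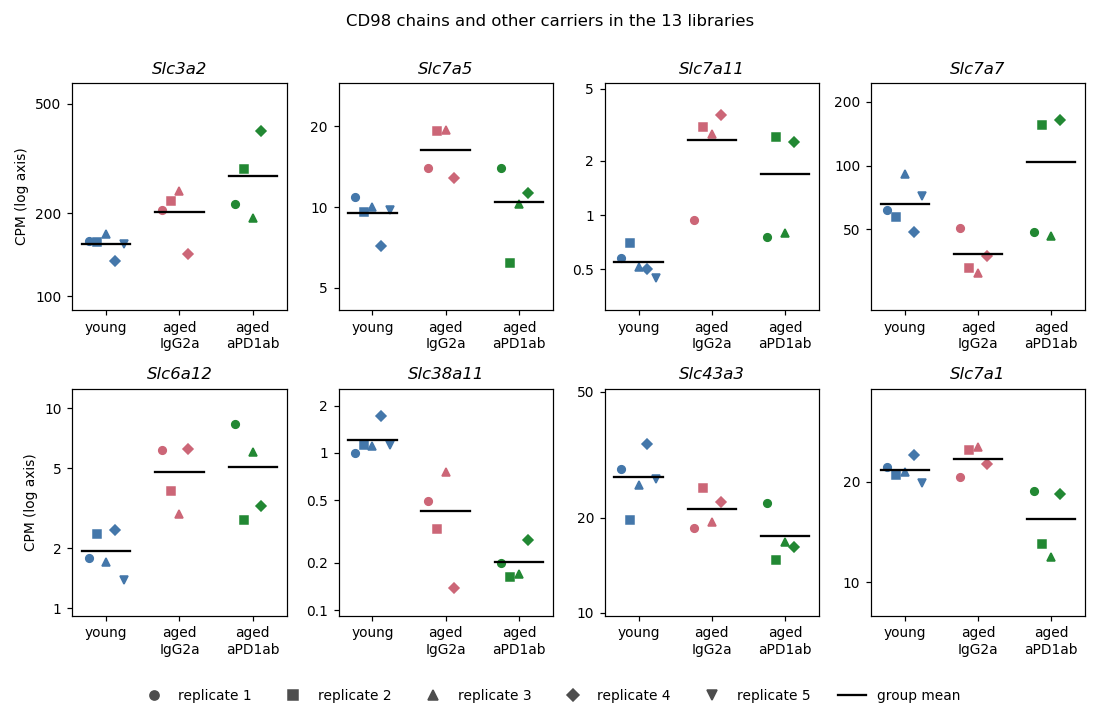
CPM (log axis) of the CD98 chains Slc3a2, Slc7a5, Slc7a11 and Slc7a7 and of Slc6a12, Slc38a11, Slc43a3 and Slc7a1 in the 13 libraries, by group, with a marker shape for each replicate number and a black line at the group mean. All 8 aged libraries lie above the young ones for Slc7a11 and Slc6a12 and below them for Slc38a11.

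The antibody comparison asks how aPD1ab changed the aged fraction relative to IgG2a. Apical carriers had higher means in aged aPD1ab, but over all mapped libraries no member passed the test. EdgeR called 0 of 47 members tested in either direction, where 0% of all genes passed. An unadjusted p under 0.05 was found for 20 members and for 4341 of all 15530 genes tested. DESeq2 called 11 members higher and 1 lower, where 1390 and 983 of all genes were called. Limma voom with sample quality weights called 16 and 6 members, where 3240 and 2920 of all genes were called. With any single library other than aged IgG2a replicate 1 left out, edgeR called 0 members and 0 of all genes in either direction. Without aged IgG2a replicate 1, edgeR called 14 higher and 2 lower, against 17.1% and 13.2% of all genes. The members' median log2 fold change was 0.42 with and 0.44 without that library, where the median of all genes was -0.01 and 0.01.

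Aged aPD1ab libraries differed among themselves in the apical carriers. Slc3a1 measured 80.8, 249, 61.5 and 87.8 CPM in aged aPD1ab replicates 1 to 4, Slc7a9 35.0, 127, 40.0 and 101 CPM, and Slc1a1 33, 118, 45.7 and 66.3 CPM. Slc6a20b measured 46.0, 135, 39.2 and 58.3 CPM and Slc6a20a 3.08, 8.43, 2.55 and 4.13 CPM. In each of these 5 genes replicate 2 was the highest, all 4 libraries were above aged IgG2a replicates 2 to 4, and aged IgG2a replicate 1 lay within their range. The log2 fold changes over all mapped libraries were 1.39 to 2.07 for the 8 apical carriers (edgeR adjusted p from 0.109 to 0.242). Without aged IgG2a replicate 1 they were 1.94 to 3.02, and 7 of 8 passed, with the exception of Slc6a20a (adjusted p = 0.0605, edgeR). The proximal tubule markers moved with them, at 8820, 25100, 9590 and 9500 CPM in aged aPD1ab replicates 1 to 4, and edgeR called 0 of 12 over all mapped libraries (10 had an unadjusted p under 0.05) and 12 of 12 without replicate 1. Relative to 1000 CPM of markers the 8 carriers made up 58.5, 67.6, 57.9 and 86.0 CPM.

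The carriers of the early and the late proximal tubule did not keep the same ratio in all libraries. Slc6a19, known from the early segments, measured 84.1, 288, 137 and 397 CPM in aged aPD1ab replicates 1 to 4, whereas Slc7a13, known from the late segment, measured 134, 336, 109 and 40.3 CPM and Slc6a18 100, 435, 121 and 62.5 CPM. Replicate 4 was thus the highest library of all 13 for Slc6a19 and the lowest of its group for Slc7a13 and Slc6a18. The ratio of Slc6a19 to Slc7a13 was 9.85 in that library, 0.627 to 1.25 in the other 3 aged aPD1ab libraries and 0.522 to 0.846 in young ones. In aged IgG2a replicates 1 to 4 it was 0.666, 1.18, 0.994 and 3.37. The basolateral Slc7a7 and Slc7a8 went with Slc6a19, at 164 and 333 CPM in aged aPD1ab replicate 4, the highest of the 13 libraries for both. Slc5a2, the glucose carrier of the early segment, was also highest there, at 426 CPM against 104 to 203 CPM in young libraries, and Slc22a6, a basolateral organic anion carrier, was at 71.0 CPM against 348 to 539 CPM. No test was made of this pattern, which was chosen after the values were seen.

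**Figure D4:**
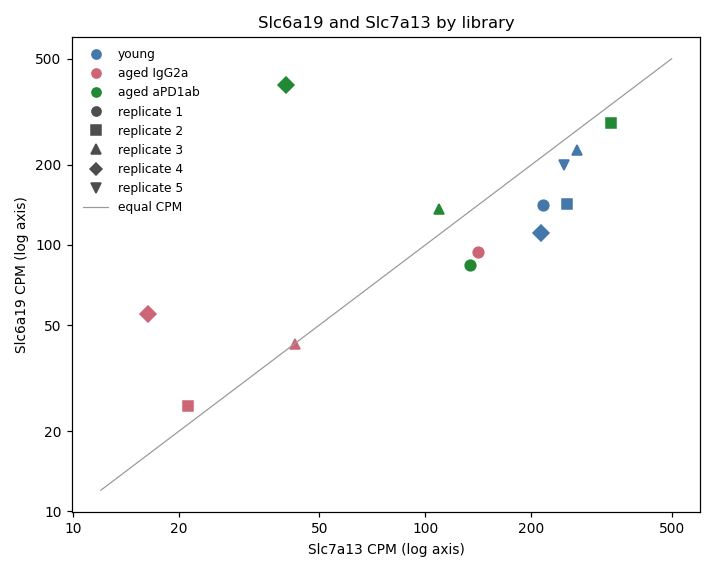
CPM of Slc6a19 against CPM of Slc7a13 (log axes), 1 point a library, coloured by group, with a grey line at equal CPM. Aged aPD1ab replicate 4 (diamond) lies far above the line, at 397 CPM of Slc6a19 and 40.3 CPM of Slc7a13, and all 5 young libraries lie below it.

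Slc6a15, Slc6a4, Slc7a1 and Slc36a4, the last of them outside the naming rule, did not overlap between the antibody groups over all mapped libraries, and none of them passed the test there. The share of all genes without such overlap is not given here, so the lack of overlap is a description only. Slc6a15 stood at 5.36, 14.5, 5.90 and 12.3 CPM in aged aPD1ab libraries, all above the highest aged IgG2a value of 4.13 CPM, with a log2 fold change of 1.91 ± 0.42 (adjusted p = 0.109, edgeR) and of 2.25 ± 0.43 without aged IgG2a replicate 1 (adjusted p = 0.0099, edgeR). Slc7a1 (CAT1), the general importer of arginine and lysine, went the other way. It measured 22.1, 21.0, 21.4, 24.1 and 19.8 CPM in young, 20.7, 24.9, 25.4 and 22.7 CPM in aged IgG2a and 18.8, 13, 11.9 and 18.4 CPM in aged aPD1ab libraries. Every aged aPD1ab library was below every other library. The log2 fold change against aged IgG2a was -0.60 ± 0.18 (adjusted p = 0.109, edgeR), or -0.67 ± 0.18 without replicate 1 (adjusted p = 0.0266, edgeR), and that against young was -0.47 ± 0.15 (adjusted p = 0.0492, edgeR), a call that was lost in 7 of the 9 fits without 1 library.

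Without aged IgG2a replicate 1 the other members that rose under aPD1ab were Slc38a4 at 2.91, Slc6a13 at 2.99, Slc1a4 at 2.25, Slc6a4 at 1.85, Slc6a8 at 1.69 and Slc7a7 at 1.60 on the log2 scale. In aged aPD1ab replicates 1 to 4 Slc6a8 measured 125, 247, 116 and 232 CPM, Slc6a13 20.1, 90.5, 22.9 and 23.4 CPM and Slc1a4 7.57, 21.3, 8.00 and 5.31 CPM. For Slc6a13 and Slc1a4 the group mean rested on replicate 2, the library with the highest tubule marker sum. The glutamine importer Slc38a1 fell, from 33.7, 36.7 and 47.1 CPM in aged IgG2a replicates 2 to 4 to 21.9, 12.5, 19.1 and 19.4 CPM, and aged IgG2a replicate 1 at 15.1 CPM lay within the latter range. Its log2 fold change was -1.13 ± 0.19 in that fit (adjusted p = 0.0078, edgeR) and -0.89 ± 0.33 over all mapped libraries (adjusted p = 0.133, edgeR). Macrophage markers were lower in the same fit for 5 of 6 genes and summed to 8090, 2960, 10500 and 5720 CPM in aged aPD1ab libraries.

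In the CD98 group most genes were not called between the antibodies. Slc3a2 measured 217, 289, 193 and 396 CPM in aged aPD1ab libraries, overlapping with aged IgG2a, and Slc7a5 measured 14.0, 6.19, 10.3 and 11.3 CPM, where replicate 1 lay in the aged IgG2a range. Slc7a11 split the aged aPD1ab libraries, with 2.69 and 2.53 CPM in replicates 2 and 4 and 0.761 and 0.794 CPM in replicates 1 and 3. Of the 6 tested genes of this group, 1 passed without aged IgG2a replicate 1, Slc7a7 (adjusted p = 0.0451, edgeR), and 0 passed over all mapped libraries, where 3 had an unadjusted p under 0.05.

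The comparison of aged aPD1ab with young libraries uses no aged IgG2a library. The apical carriers were not called, and the CD98 heavy chain and Slc7a11 rose. Of 47 members tested 4 rose and 4 fell, against 12.4% and 9.97% of all genes (edgeR quasi-likelihood test). The log2 fold changes of the 8 apical carriers ran from -0.62 for Slc7a13 to 0.60 for Slc7a9, with 5 negative and 3 positive, and the 12 tubule markers were likewise not called, with a median of 0. The wide spread of aged aPD1ab libraries limits this result, since the SE of these fold changes was 0.32 to 0.48.

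Slc3a2 was above the young range in all 4 aged aPD1ab libraries, with a log2 fold change of 0.84 ± 0.20 (adjusted p = 0.015, edgeR) that passed in each of the 9 fits without 1 library. Slc7a11 rose by 1.64 ± 0.43 on the log2 scale (adjusted p = 0.0216, edgeR). Its call was lost without aged aPD1ab replicate 4 or without young replicate 4, and the highest adjusted p among these fits was 0.0681. Slc43a3, which is known to carry purine nucleobases, measured 28.6, 19.6, 25.3, 34.1 and 26.6 CPM in young and 22.3, 14.7, 16.8 and 16.2 CPM in aged aPD1ab libraries. Replicate 1 overlapped the young range, and the log2 fold change was -0.61 ± 0.17 (adjusted p = 0.0277, edgeR). Slc38a1 fell by 0.57 ± 0.18 (adjusted p = 0.0447, edgeR). These calls for Slc43a3 and Slc38a1 were lost in 6 and 7 of the 9 fits without 1 library. With the tubule marker score as a covariate 7 of 47 members rose and 6 fell in this comparison, where 2769 and 2521 of all 15986 genes tested did so.

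Several abundant carriers were called in none of the 3 comparisons, with or without aged IgG2a replicate 1. Slc6a6, the taurine carrier, measured 320 to 372 CPM in young, 233 to 339 in aged IgG2a and 194 to 363 in aged aPD1ab libraries. Slc38a2 (SNAT2), the glutamine and alanine importer that cells induce when amino acids are short, measured 130 to 160, 92.7 to 190 and 128 to 165 CPM. Slc1a5 (ASCT2), another glutamine carrier, measured 68.5 to 82.7, 75.5 to 97.1 and 50.8 to 93.2 CPM. Slc43a2 (LAT4), a basolateral exit route for branched-chain amino acids, measured 203 to 253, 182 to 215 and 164 to 262 CPM, and Slc38a10 140 to 154, 125 to 156 and 109 to 144 CPM. The groups overlapped for each of these 5 genes over all mapped libraries. Without aged IgG2a replicate 1, which stood at 215 and 156 CPM, the aged IgG2a libraries lay below all young ones for Slc43a2, at 182 to 195 CPM, and for Slc38a10, at 125 to 129 CPM. Among the less abundant, Slc1a3 (GLAST), Slc7a2 (CAT2), Slc7a4 and Slc7a12 averaged between 0.471 and 5.84 CPM in every group and were not called either.

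**Figure D5:**
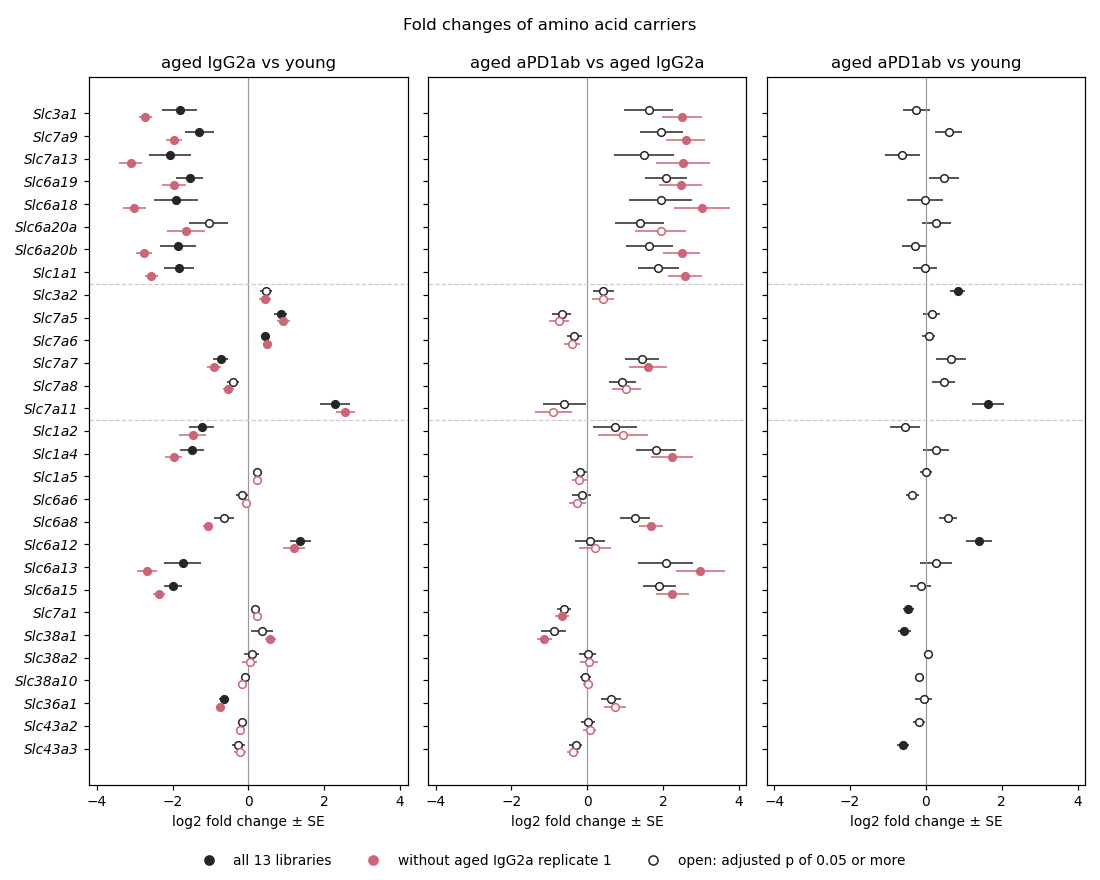
Log2 fold changes with SE for 29 members in the 3 comparisons, over all mapped libraries (black) and without aged IgG2a replicate 1 (red), with open circles where the edgeR adjusted p was 0.05 or more. The dashed lines separate, from the top, the 8 apical carriers, the 6 CD98 chains and 15 other members. The apical carriers lie left of 0 in the first panel, right of 0 in the second and around 0 in the third.

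Genes that work with these carriers were counted from lists. Of 14 tested partners and other amino acid or peptide carriers, 3 rose and 3 fell in aged IgG2a against young, where 9.05% and 8.38% of all genes did so. Among those that fell were Cltrn (collectrin), which Slc6a19 and Slc6a18 need at the membrane, at -1.48 ± 0.37, and the mitochondrial ornithine carrier Slc25a15 at -1.31 ± 0.31. The median of the list was -0.06. With aged IgG2a replicate 1 left out, the list had 3 that rose and 5 that fell, against 22.1% and 23.5% of all genes. In aged aPD1ab against aged IgG2a edgeR called 0 of 14 over all mapped libraries, where 4 had an unadjusted p under 0.05, and without that library 5 rose and 1 fell, against 17.1% and 13.2% of all genes. Cltrn measured 1.73 ± 0.49 (adjusted p = 0.109, edgeR) in the former fit and 2.28 ± 0.39 (adjusted p = 0.008, edgeR) in the latter.

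Of 16 genes of the ATF4 response, by which cells answer a lack of amino acids and which is known to include Slc7a11, Slc3a2 and Slc7a5, 5 rose and 1 fell in aged IgG2a against young, where 9.05% and 8.38% of all genes did so. Leaving out aged IgG2a replicate 1 gave 5 and 3, against 22.1% and 23.5% of all genes, and with the tubule marker covariate edgeR called 0 and 0 (2 had an unadjusted p under 0.05). Over all mapped libraries Pycr1 of proline synthesis rose by 1.92 ± 0.52, Cebpb by 1.76 ± 0.34 and Aldh18a1 by 0.74 ± 0.11, whereas the serine enzyme Shmt2 fell by 0.94 ± 0.25. In aged aPD1ab against young 7 of 16 rose and 0 fell (8 had an unadjusted p under 0.05), against 12.4% and 9.97% of all genes. Among those that rose were Atf4 at 0.65 ± 0.12 and Asns, asparagine synthetase, at 0.88 ± 0.20. The median log2 fold change of the list was 0.55 and 0.62 in these comparisons. Between the antibodies edgeR called 0 of 16 over all mapped libraries (7 had an unadjusted p under 0.05). Without replicate 1, 4 rose and 1 fell, against 17.1% and 13.2% of all genes.

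Of 23 genes that report amino acids to mTORC1, 3 rose and 3 fell in aged IgG2a against young, with a median of 0.07, where 9.05% and 8.38% of all genes did so. Without replicate 1 it was 4 and 5, against 22.1% and 23.5% of all genes. Between the antibodies edgeR called 0 of 23 over all mapped libraries (6 had an unadjusted p under 0.05), and without replicate 1 it called 7 higher and 0 lower (10 had an unadjusted p under 0.05), against 17.1% and 13.2% of all genes. In aged aPD1ab against young 8 rose and 1 fell, against 12.4% and 9.97% of all genes. Those that rose included Lamtor1, Lamtor2, Lamtor4 and Lamtor5 of the lysosomal Ragulator complex at 0.53 to 0.70.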

How the data were processed

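The authors sequenced the podocyte fractions and deposited 1 table with the whole-number counts of reads per Ensembl gene, not normalized, and the submitters' processing notes name HISAT2, featureCounts and mm10/GRCm38, without versions. Of 15 columns 13 were used. Columns carry numbers that the labels do not, so groups were read from the study's principal component plot, and 2 columns that it does not place were left out. Symbols, positions and overlapping genes came from GENCODE M21, and start regions from RefSeq (GRCm38.p6).

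Each pair of groups was fitted over all genes in R 4.3.3 with edgeR 4.0.16 (robust quasi-likelihood test, TMM normalization, genes kept by filterByExpr, Benjamini-Hochberg adjustment, calls at an adjusted p under 0.05). CPM values are TMM-scaled. Log2 levels for the principal components and the tubule marker score had a count of 2 added, and fold changes used edgeR's default prior count. The filter left out 18 members in the age comparison and 17 in each of the others. Alternatives used DESeq2 1.42.0, limma 3.58.1 (voom), other normalization, no filter, 1 fit of all groups, a tubule marker covariate, a 2-fold rule and each library left out in turn. Scripts were tested on simulated counts.

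Named members were all tested apical and CD98 genes, up to 25 called members per comparison, and the 3 most abundant of each other role group. Members and lists were chosen with earlier results of these data known. A list's count and median are descriptions. Counts and floors cover counting error only. The values of 1 gene on the list of partners and other carriers are not reported here, although it is included in the counts and median of that list.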

Additional observations from a re-analysis of the deposited data

Results flagged for a closer look

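Libraries far from the rest of their group were sought for 40 named members in 3 groups each (the gap to the nearest library over the range of the group, against the 95% critical value of Dixon's test). Of 120 groups 17 were marked, and chance marks about 1 in 20. Aged IgG2a replicate 1 accounted for 9. It was above its group for Slc1a1 at 39.1 CPM (others 9.81 to 12.0), Slc1a3 at 6.04 (2.76 to 3.29), Slc38a10 at 156 (125 to 129), Slc3a1 at 94.4 (18.9 to 24.6), Slc6a13 at 22.9 (3.18 to 6.52), Slc6a20b at 53.8 (9.41 to 16.1), Slc6a8 at 135 (52.1 to 59.8), Slc6a9 at 6.24 (2.7 to 3.03) and Slc7a9 at 41.4 CPM (10.1 to 14.9).

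Aged aPD1ab replicate 2 accounted for 6, all above its group. These were Slc1a4 at 21.3 CPM (others 5.31 to 8.00), Slc3a1 at 249 (61.5 to 87.8), Slc6a13 at 90.5 (20.1 to 23.4), Slc6a18 at 435 (62.5 to 121), Slc6a9 at 9.04 (3.57 to 3.84) and Slc7a12 at 3.83 CPM (0.480 to 0.794). The other 2 were in young replicate 4, which was high for Slc38a11 at 1.71 CPM (0.995 to 1.13) and low for Slc7a6os at 10.6 CPM (14.7 to 15.7). Whether tubule content accounts for the first 2 libraries was not tested.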

How the results depend on the processing

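No paired analysis was possible because the columns carry no replicate numbers that pair groups. For aged IgG2a against young (5 members higher, 14 lower) the counts were 11 higher with voom, 2 higher with a 2-fold rule, 7 lower without a filter, 9 lower in 1 fit of all groups, and 0 and 0 with the tubule marker covariate, alone or without aged IgG2a replicate 1 (the latter fit was added after seeing the data). Leaving out 1 library gave 2 to 10 higher and 1 to 20 lower. For aged aPD1ab against aged IgG2a (0 and 0) the counts were 12 and 1 in 1 fit of all groups, 16 and 6 with voom and 11 and 1 with DESeq2, and 0 to 14 higher and 0 to 2 lower with 1 library left out. For aged aPD1ab against young (4 and 4) they were 2 and 1 with the 2-fold rule, 7 higher with the covariate, and 3 to 7 higher and 1 to 8 lower with 1 library left out. The calls over all genes shifted as well. For aged aPD1ab against aged IgG2a they were 0 and 0 in the main fit and 1861 and 1002 in 1 fit of all groups. For aged aPD1ab against young they were 1984 and 1594 in the main fit and 2769 and 2521 with the covariate. The cause of these shifts was not tested.

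Among named members with a call, directions turned in the fits with that covariate and in no other. For aged IgG2a against young the log2 fold changes with it were 0.068 (Slc3a1), 0.075 (Slc6a20b), 0.088 (Slc6a13), 0.36 (Slc7a9), 0.53 (Slc6a8), 0.17 (Slc6a18), 0.90 (Slc38a4), -0.29 (Slc38a9), 0.03 (Slc6a9), -1.08 (Slc38a1), 0.072 (Slc7a8), 0.87 (Slc6a20a) and 0.41 (Slc6a4). With it and without aged IgG2a replicate 1 they were 0.049 (Slc6a20b), 0.64 (Slc7a9), 0.055 (Slc6a8), 2.18 (Slc6a19), -0.22 (Slc6a12), 0.94 (Slc7a7), -0.19 (Slc7a6), 0.88 (Slc7a8), 5.34 (Slc6a20a) and 1.18 (Slc6a4). For aged aPD1ab against aged IgG2a they were 0.29 (Slc38a1), -0.30 (Slc6a20b), -0.39 (Slc3a1), -0.13 (Slc6a13), -0.33 (Slc6a18) and -0.44 (Slc7a13), and without that library -0.35 (Slc6a20b), -0.083 (Slc7a9), -0.47 (Slc3a1), -0.40 (Slc6a13), -0.34 (Slc6a18), -0.31 (Slc1a4), -0.44 (Slc6a4), -0.16 (Slc7a13) and -0.73 (Slc7a7). Adjusted p in these fits was 0.237 or more. Members with a few counts a library, such as Slc38a11, have little precision.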
